A study of Argiope bruennichi with 12 samples.

Results

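The genes described here had a lower level in moderate replicates 1 to 3 than in every pool of the cold and of the warm winter regime, in spiderlings of the wasp spider Argiope bruennichi. RNA-Seq counts were scaled to CPM, the count of a gene times 1000000 over the total of its pool. A gene was taken if its mean CPM over the 12 pools was at least 2, if its lowest cold or warm pool lay above its highest moderate pool among replicates 1 to 3, if the mean of the 8 cold and warm pools was at least 1.5 times the mean of these 3 (the ratio), and if the warm mean over the cold mean lay between 0.67 and 1.49. Of 37457 genes with values, 12442 reached the mean CPM and 351 met all conditions, and the 200 with the largest ratio were kept. The genes were thus chosen by their measured levels in cold and warm pools and in moderate replicates 1 to 3, and these levels are given as a description, with no test. Moderate replicate 4 entered the mean CPM over the 12 pools and had no other part in the choice.

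Each pool held 15 whole spiderlings, and 4 pools came from each regime after 3 months of exposure. Days were at 5°C and nights at -15°C in the cold regime, at 5°C and -5°C in the moderate regime and at 15°C and -5°C in the warm regime. All spiderlings were first instars that stayed inside their silk egg sacs, laid in the laboratory by females that had mated before they were caught at the northern edge of the range. The temperatures were fixed, each regime had one climate cabinet, and the cold one was of another make, so that regime and cabinet cannot be told apart. Which mothers the pools came from is not given in the sources used here, so the spread between pools may be in part that between families. Counts per pool summed to between 10800714 in moderate replicate 2 and 16081111 in cold replicate 1.

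Wasp spiders overwinter as young spiderlings in the egg sac, where they live on the reserves of the egg until spring. Overwintering ectotherms adjust transcription both to the mean temperature and to its daily swing. The regimes differed in both, and the swing was larger in the cold and the warm regime than in the moderate one. The part of either in the levels of these genes was not tested. Among the 200 genes 193 code for proteins, 6 are long non-coding RNA (lncRNA) genes and 1 is a small nuclear RNA (snRNA) gene. Small nuclear RNAs form the core of the spliceosome, which removes introns from pre-mRNA, while lncRNAs are transcripts without a long reading frame, most of them of unknown role. Product names were not used here, so that the genes go by their identifiers and the groups below rest on level, position and gene type. Positions are those of assembly qqArgBrue1.1. In whole animals a larger part of the cells with a transcript and more of it per cell cannot be told apart.

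The genes were chosen against 3 of the 4 moderate pools, and in most of them replicate 4 overlapped the cold and warm pools. They are thus not described as raised in both cold and warm winters over the whole moderate regime. The paper describes more variability among its moderate samples, most of which grouped nearer to cold and 1 nearer to warm in its heat maps. Its text does not say which sample that was. Whether moderate replicate 4 could be a swapped or mixed pool was not tested, and each value that includes it rests on its label. In 24 of the 200 genes (12%) every cold and warm pool lay above all 4 moderate pools. Replicates 1 to 3 were below by the choice, so that this count only asks whether replicate 4 was below as well. Replicate 4 lay below all cold and warm pools in 13.3% of all genes tested, a share near that of the 200. In all, 36 genes met the same conditions set against all 4 pools. Over all 14057 genes tested, 0.576% lay above the 4 moderate pools without overlap, and 5.94% above replicates 1 to 3. The median ratio of the 200 genes was 1.94 against replicates 1 to 3, and 1.59 once replicate 4 was counted among the moderate pools. Against all 4 pools the ratio was still at least 1.5 in 137 genes, and its lowest value was 1.03.

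Summed over the 200 genes, the level was 7881, 6864, 6910 and 6615 CPM in cold replicates 1 to 4, and 7554, 7889, 7739 and 7353 CPM in warm replicates 1 to 4. The moderate sums were 4253, 3006, 4061 and 6787 CPM. Moderate replicate 4 thus fell inside the range of the cold pools and below every warm pool, and the 3 pools used in the choice lay apart from all others. The regime means were 7067 ± 558 (SD, n = 4) in cold, 7634 ± 232 (SD, n = 4) in warm and 4527 ± 1604 (SD, n = 4) in moderate pools, and moderate replicates 1 to 3 alone had 3773 ± 671 (SD, n = 3). The genes took up between 0.301% and 0.789% of the counts of a pool.

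**Figure D1:**
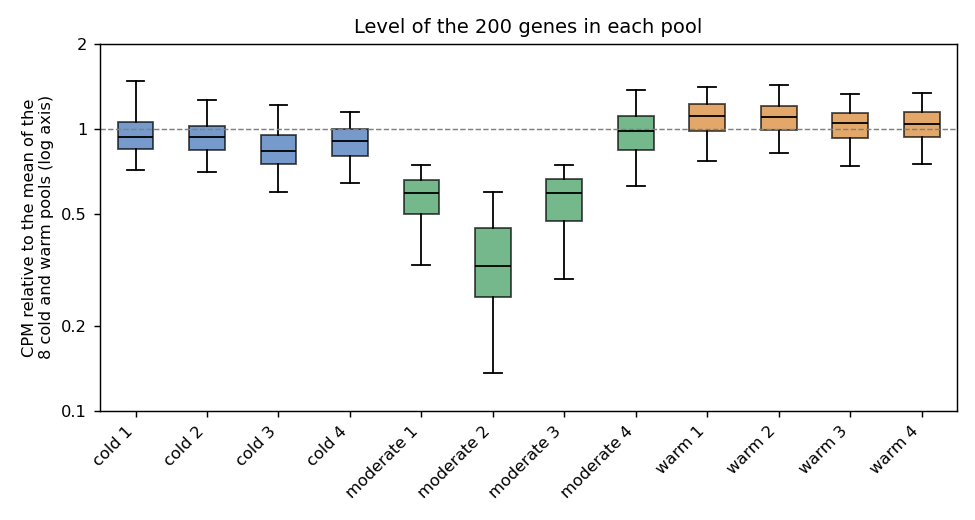
CPM of the 200 genes in each of the 12 pools, divided by the gene's mean over the 8 cold and warm pools (log axis). Lines in boxes are medians over genes, boxes span the quartiles and whiskers the 5th to 95th percentile. The median is 0.594, 0.327 and 0.591 in moderate replicates 1 to 3, which chose the genes, and 0.986 in moderate replicate 4.

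Gene by gene, the medians relative to the mean of the 8 cold and warm pools were between 0.832 and 0.938 in the cold pools and between 1.04 and 1.11 in the warm pools. Moderate replicates 1 and 3 were alike, at 0.594 and 0.591, and moderate replicate 2 was lower, at 0.327. That pool was the lowest of all 12 in 160 of the 200 genes, and the lowest of moderate replicates 1 to 3 in 161, where 52.5% of all genes tested had it lowest. Over the 200 genes the median of its CPM over the mean of replicates 1 and 3 was 0.565, against 0.898 over all genes tested. It also had the lowest total count and the lowest TMM scaling factor of edgeR, 0.904, where the other pools had 0.975 to 1.03. The part of depth and scaling in its low values was not tested as a cause, and with TMM scaling 188 of the 200 genes met the conditions still. Without moderate replicate 2, 161 of them did so.

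Moderate replicate 4 was above the highest of moderate replicates 1 to 3 in 192 of the 200 genes, within their range in 7 and below it in 1. Among all genes tested it was above them in 32.8%. The genes were chosen to be low in the other 3 pools, so that a pool above them is in part a result of the choice. Its median log2 ratio to the mean of the 3 was 0.89 over these genes and -0.01 over all genes tested. The 324 genes that met the mirror image of the conditions, higher in moderate replicates 1 to 3 than in all cold and warm pools, had a median log2 ratio of -0.96, and 323 of them were lower in replicate 4 than in each of the 3. In both sets, chosen in opposite directions, replicate 4 lay off the other moderate pools on the side of the cold and warm pools, and for both the choice has a part in this.

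To place replicate 4 between the groups, its position was set to 0 at the mean of moderate replicates 1 to 3 and to 1 at the mean of the 8 cold and warm pools, on the CPM scale. The median position over the 200 genes was 0.973, with quartiles of 0.678 and 1.22 and a range of -0.327 to 3.77. It was above 1 in 94 genes, between 0.5 and 1 in 83 and below 0.5 in 23. The cold pools had median positions of 0.639 to 0.864 on the same scale and the warm pools 1.09 to 1.21, with that of replicate 4 in between. Both ends of the scale are means of pools that chose the genes, so that the choice has a part in all these positions. Replicate 4 reached the lowest cold or warm pool in 176 genes (88%), which is near the 86.7% of all genes tested, and in 18 genes it lay above all cold and warm pools. In 16 genes (8%) it lay in the gap, above the other moderate pools and below all cold and warm pools, as it did in 0.313% of all genes tested, and the choice itself sets such a gap.

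**Figure D2:**
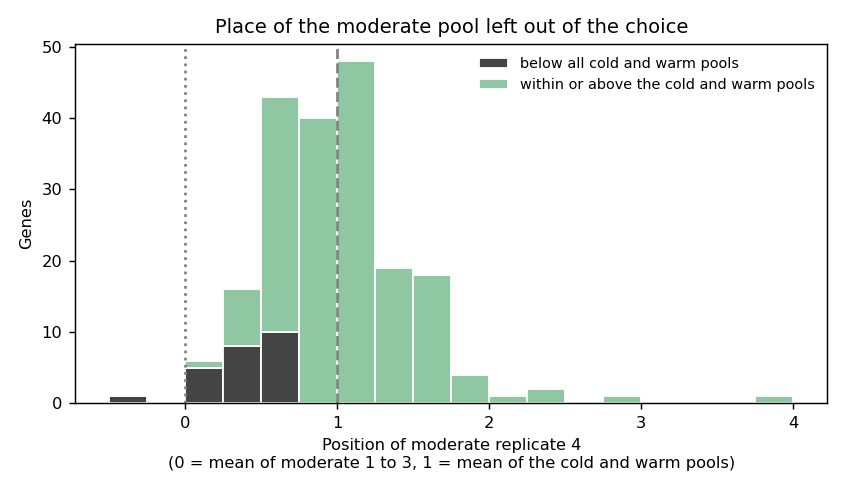
Number of the 200 genes (vertical axis) by the position of moderate replicate 4 (horizontal axis, 0 at the mean of moderate replicates 1 to 3 and 1 at the mean of the cold and warm pools). The median is 0.973, and the 24 genes in which the pool lies below all cold and warm pools (dark) sit between -0.327 and 0.715.

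In 5 chaperone genes that the paper names, none of them among the 200, moderate replicate 4 was below the other moderate pools and below all cold pools. Heat shock protein 70 B2 (LOC129958558), which refolds proteins in stressed cells, had 355, 508, 253 and 17.2 CPM in moderate replicates 1 to 4, with 67.3 to 216 CPM in cold and 22.0 to 57.0 CPM in warm pools. Replicate 4 was the lowest of all 12 pools in this gene and inside the range of the warm pools in the other 4. The highest of all pools was moderate replicate 2 in 3 of the genes and moderate replicate 3 in the small heat shock protein (LOC129988413) and the alpha-crystallin A chain-like gene (LOC129984551). The part of such differences between the moderate pools in the levels of the 200 genes was not tested.

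The 8 genes with the largest ratio were mostly of low level and varied widely within regimes. The largest ratio, 66.9, belonged to LOC129958002, the only snRNA gene (chromosome 11, 21515618 to 21515778). It had 40.2, 26.6, 5.97 and 37.7 CPM in cold, 0.283, 0.185, 0.601 and 35.1 CPM in moderate and 19.9, 33.8, 25.6 and 1.02 CPM in warm replicates 1 to 4. Moderate replicates 1 to 3 rested on 4, 2 and 8 counts and replicate 4 on 433, so that the moderate pools spanned nearly the whole range of the gene. Warm replicate 4, with 15 counts, was close to the low moderate pools. The log2 fold-change of the cold and warm pools over all 4 moderate pools, from edgeR, was 1.34 ± 1.07 (SE), and it was 5.94 without moderate replicate 4. Genes of snRNAs occur in near-identical copies, among which reads may have been split, so that its own count is uncertain. The other 26 snRNA genes tested summed to 5799, 5971, 7252 and 9210 CPM in the moderate pools. Their sums were 5427 to 7368 CPM in cold and 8928 to 9871 CPM in warm pools. Of these genes 1 lay above moderate replicates 1 to 3 without overlap, where 5.94% of all genes tested did. As in LOC129958002, replicate 4 was the highest moderate pool in this sum, and it lay inside the range of the warm pools. Unlike in LOC129958002, the cold pools overlapped moderate replicates 1 to 3.

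LOC129971067 (chromosome 6, 86072376 to 86076846), with the next largest ratio of 18.5, is protein-coding. Cold replicate 1 had 34.3 CPM and the other cold pools 1.04 to 1.56 CPM, the moderate pools had 0.850, 0.370, 0.0751 and 7.29 CPM and the warm pools 4.85, 8.75, 6.29 and 6.05 CPM. A single cold pool made up most of the cold mean, and 3 of the 4 cold pools lay closer to moderate replicates 1 to 3 than to the warm pools. The log2 fold-change was 1.83 ± 1.06 (SE), and 4.09 without moderate replicate 4. LOC129988756 on chromosome 10 had 1.64 to 2.61 CPM in cold, 0.496, 0.0926, 0.676 and 2.59 CPM in moderate and 1.55 to 4.71 CPM in warm pools. Here too replicate 4 was at the cold and warm level, and its 32 counts stood against 7, 1 and 9 in the other moderate pools.

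LOC129964051 (chromosome 3, 62872386 to 62898459) was the gene with the largest ratio among those above all 4 moderate pools, at 4.55, or 3.48 with replicate 4. It had 44.7, 18.8, 17.2 and 13.1 CPM in cold, 3.19, 10.2, 3.38 and 12.5 CPM in moderate and 28.3, 35.9, 23.2 and 22.2 CPM in warm replicates 1 to 4. The warm pools lay clear of the moderate ones, while cold replicate 4 was only just above moderate replicate 4. Its log2 fold-change was 1.74 ± 0.43 (SE).

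The remaining genes of large ratio were LOC129973097 on chromosome 6, LOC129969046 on chromosome 5, LOC129966079 on chromosome 4 and LOC129964276 on chromosome 3, all protein-coding, with ratios of 4.42, 4.17, 4.01 and 3.58. In LOC129973097 moderate replicate 4, at 2.91 CPM, was above replicates 1 to 3 (0.780 to 1.58 CPM) and inside the range of the cold pools (2.69 to 10.1 CPM). LOC129969046 had 5.18 CPM in replicate 4, 0.648 to 2.20 CPM in the other moderate pools and 2.72 to 12.2 CPM in the cold ones. In LOC129966079 replicate 4 had 6.15 CPM, more than every warm pool but 1 (2.26 to 6.54 CPM), and in LOC129964276 it had 2.75 CPM against 2.22 to 4.76 CPM in the warm pools. In each of these 4 genes, then, replicate 4 sat among the cold or warm pools.

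Of the 8 genes with the highest mean CPM, LOC129981187 (chromosome 8, 30198359 to 30207036) came first. Its cold pools had 853, 588, 992 and 640 CPM, its moderate pools 513, 444, 360 and 444 CPM and its warm pools 732, 719, 889 and 562 CPM. All 4 moderate pools were alike in this gene and lay below every other pool, and the position of replicate 4 was 0.0157. The means were 768 ± 188, 440 ± 62.6 and 726 ± 134 (SD, n = 4 each), and the log2 fold-change was 0.72 ± 0.17 (SE).

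LOC129975604 (chromosome 1, 29749994 to 29806925) had 414, 380, 275 and 299 CPM in cold, 142, 86.2, 175 and 197 CPM in moderate and 322, 280, 323 and 271 CPM in warm replicates 1 to 4. Here too all moderate pools lay below every cold and warm pool, while cold and warm pools overlapped, and replicate 4 was the highest moderate pool. Cold pools averaged 342 ± 65.5, moderate pools 150 ± 48.3 and warm pools 299 ± 27.2 (SD, n = 4 each), with a log2 fold-change of 1.06 ± 0.17 (SE). LOC129963181 (chromosome 3, 45586977 to 45594393) had 488, 360, 478 and 366 CPM in cold, 107, 207, 122 and 258 CPM in moderate and 228, 426, 298 and 420 CPM in warm pools. The cold pools lay above all moderate pools, and warm replicate 1 lay below moderate replicate 4.

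The other genes of high level split by where replicate 4 stood. In LOC129958444 on chromosome X1 it had 310 CPM, above the other moderate pools (169 to 200 CPM), below the cold pools (321 to 580 CPM) and inside the range of the warm pools (247 to 380 CPM). LOC129967034 on chromosome 4 had 182 CPM in replicate 4, where the other moderate pools had 86.7 to 143 CPM, and this was inside the cold range (146 to 241 CPM) and below the warm pools (239 to 280 CPM). In LOC129983803 on chromosome 9 it reached 209 CPM, above all cold pools (154 to 195 CPM) and below the warm pools (218 to 220 CPM). LOC129959077 on chromosome X1 and LOC129976600 on chromosome 7 had 218 and 216 CPM in replicate 4, against 87.6 to 111 and 93.6 to 112 CPM in the other moderate pools. In LOC129959077 this was more than in any other pool, since the cold pools had 124 to 156 CPM and the warm pools 209 to 216 CPM.

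**Figure D3:**
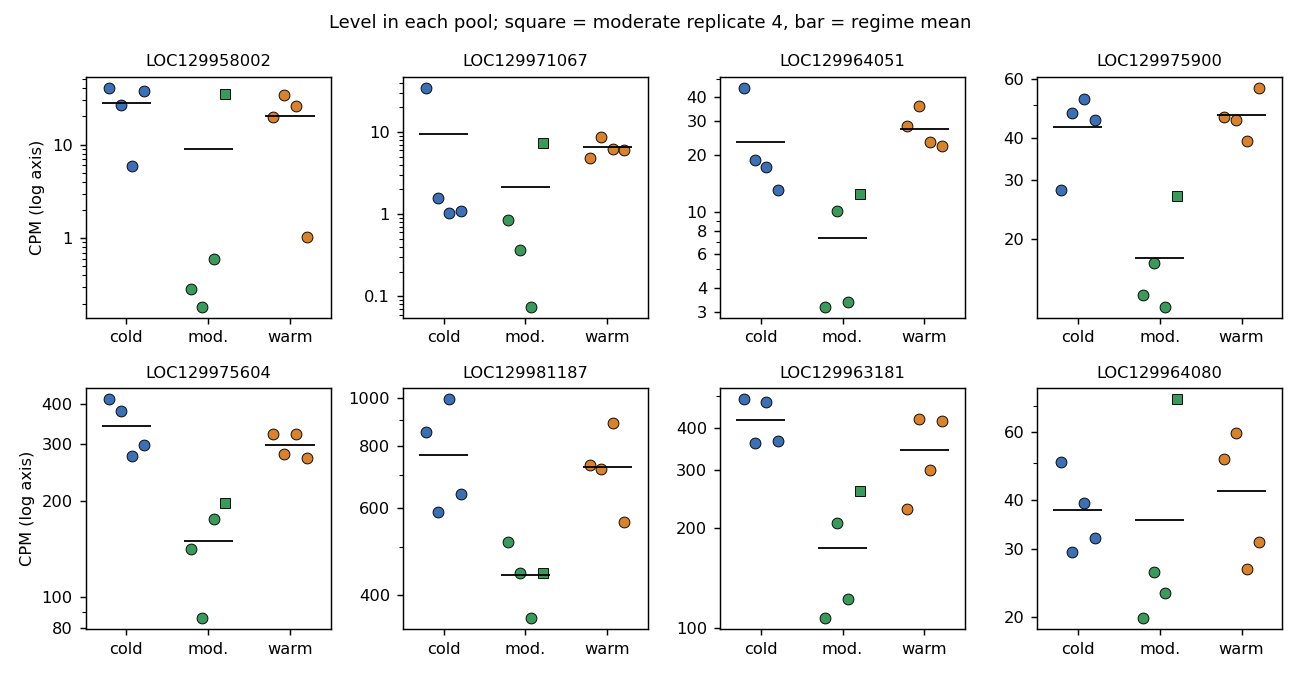
CPM (log axis, a different range in each panel) of 8 of the genes in the 4 cold, 4 moderate and 4 warm pools, left to right by replicate number; squares mark moderate replicate 4 and bars the regime means. Replicate 4 sits with the other moderate pools in LOC129981187 (444 CPM) and above all pools in LOC129964080 (72.9 CPM).

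Among genes with a mean CPM of at least 10, the 3 with the highest position of replicate 4 were LOC129964080 on chromosome 3 (2.94), LOC129984509 on chromosome 9 (2.31) and LOC129972981 on chromosome 6 (2.03). LOC129964080 had 29.4 to 50.2 CPM in cold, 19.8, 26.0, 23.1 and 72.9 CPM in moderate and 26.6 to 59.7 CPM in warm pools. Replicate 4 was its highest pool of all 12, and with that pool counted the moderate mean of 35.4 ± 25.1 CPM (SD, n = 4) was close to the cold mean of 37.7 ± 9.35 (SD, n = 4). Its log2 fold-change was accordingly 0.13 ± 0.33 (SE), turned to -0.081 without moderate replicate 1 and to -0.048 without moderate replicate 3, and was 0.75 without replicate 4. LOC129984509 had 35.6 CPM in replicate 4 against 3.98 to 12.6 CPM in the other moderate pools, and LOC129972981 had 34.4 against 6.84 to 8.43 CPM.

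At the other end, the lowest positions among the same genes belonged to LOC129967168 on chromosome 4 (0.00834), LOC129981187 (0.0157) and LOC129961808 on chromosome 2 (0.144). LOC129967168 had 112, 54.9, 72.1 and 51.0 CPM in cold, 47.8, 32.6, 46.7 and 42.7 CPM in moderate and 126, 105, 49.8 and 56.8 CPM in warm replicates 1 to 4. All moderate pools lay below the others, although warm replicate 3 was only just above the highest moderate pool. In LOC129961808 the moderate pools had 89.8, 83.5, 82.4 and 94.8 CPM, and cold replicate 4, at 91.4 CPM, fell below moderate replicate 4, so that the gene is not among the 24. Both genes overlap another annotated gene, from which their reads may not have been told apart, as do 25 of the 200. That share over all genes tested is not given here.

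The 24 genes above all 4 moderate pools had ratios of 1.58 to 3.48 against these pools (median 1.74) and mean CPM of 2.64 to 645. Next to LOC129964051, the largest ratio was that of LOC129975900 (chromosome 7, 85038409 to 85062307), at 2.57. It had 27.9, 47.4, 52.2 and 45.2 CPM in cold, 13.6, 16.9, 12.5 and 26.8 CPM in moderate and 46.3, 45.3, 39.2 and 56.3 CPM in warm replicates 1 to 4. Cold replicate 1 was only just above moderate replicate 4, while every other cold and warm pool had at least 39.2 CPM, and the log2 fold-change was 1.32 ± 0.23 (SE). LOC129974913 on chromosome 7, named after its values were seen, was the single gene of the 200 with replicate 4 below the other moderate pools, at 3.32 CPM against 4.07 to 5.56 CPM, while its cold pools had 6.83 to 10.3 CPM and its warm pools 7.11 to 9.84 CPM. In 18 of the 24 genes moderate replicate 2 was the lowest of replicates 1 to 3, and without that pool 12 of the 24 met all conditions against the 3 moderate pools left.

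Each of the 3 contrasts between regimes was fitted for all 14057 genes with edgeR's quasi-likelihood test over the 12 pools, and a gene was called at a Benjamini-Hochberg adjusted p under 0.05. All 200 genes passed edgeR's filter on low counts. The choice used these contrasts, so that the counts below describe the genes and nothing is read from them, and the contrasts share pools. A further contrast, of cold and warm together against moderate, gave the log2 fold-changes over all 4 moderate pools above. It was used by the choice as well. Even so, none of the 24 genes above all 4 moderate pools was called in it. Among them the lowest adjusted p was 0.113 by edgeR's quasi-likelihood test. In warm against moderate 27 of the 200 genes were called higher in warm, against 1.37% of all genes tested, and 0 were called lower. Their adjusted p lay between 0.0423 and 0.0491, close under 0.05 by edgeR's quasi-likelihood test. Without moderate replicate 4 the test called 190 of them and 4419 of 14181 genes tested, and without any one of the other pools 0 of them and 0 to 6 of all genes. Calls over all genes thus moved with those of the 200. The median log2 fold-change over the 200 genes was 0.73 (0.21 to 1.86), and -0.0035 over all genes tested.

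In cold against moderate edgeR called 0 of the 200 genes, against 0.00711% of all genes tested called higher in cold. At an unadjusted p under 0.05 it had 78 of them higher in cold and 0 lower, against 5.30% and 6.69% of all genes tested. DESeq2 called 15 of them and 186 of all 14057 genes, and limma with sample weights 72 and 804. Without moderate replicate 4 edgeR called 85 of them and 650 of 14181 genes tested. The median log2 fold-change was 0.52 (-0.28 to 2.10), and -0.01 over all genes tested. Among the 27 genes called in warm against moderate, 11 were of the 24 above all 4 moderate pools. The largest fold-change of the 27 was that of LOC129964051, at 1.86 ± 0.47 (SE) on the log2 scale. Both LOC129975900 (1.38 ± 0.25) and LOC129975604 (0.98 ± 0.19) were called as well, and so were 2 of the 6 lncRNA genes, LOC129976413 on chromosome 7 (1.36 ± 0.32) and LOC129959911 on chromosome 1 (0.70 ± 0.17), which were named after their values were seen.

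Between warm and cold the genes were bounded by the choice, which used the levels of both regimes. The values below thus describe the genes, and nothing is read from them. The warm mean was above the cold mean in 163 of the 200 genes, a count not made over all genes, and the median of warm over cold was 1.19. From edgeR, the median log2 fold-change of warm over cold was 0.27 over these genes and -0.0093 over all genes tested. All warm pools lay above all cold pools in 44 genes, where 11.9% of all genes tested did so, and all cold pools above all warm ones in 3, against 14.6%. The regimes overlapped in the other 153. In edgeR's test of warm against cold 0 of the 200 genes were called, against 2.7% of all genes tested called higher and 2.77% called lower in warm. At an unadjusted p under 0.05 there were 16 higher and 1 lower in warm, where 12.41% and 12.98% of all genes tested were. DESeq2 called 1 of them and 1715 of all genes, limma with sample weights 42 and 3727, and edgeR without moderate replicate 4 17 and 2237. The bounds of 0.67 and 1.49 kept genes of larger difference out.

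Mean CPM of the 200 genes ranged from 2.04 to 645, with a median of 13.9, where the median over all genes tested was 24.2. It was at least 100 in 13 genes and under 10 in 81. CPM is not per length, so that these values order genes by their share of the counts and not by transcript number. At the limit of 200, LOC129976542 and LOC129981109 were the last inside, with ratios of 1.69 each, and LOC129981316 and LOC129957254, both 1.68, the first outside. The limit thus cut through a run of near-equal ratios. Of the 351 genes that met the conditions 246 had a mean CPM of at least 10, and 119 of these were among the 200, so that the genes left out were more often of higher level.

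Features that the choice did not use were set beside those of the 14033 genes tested that have an annotation. Protein-coding genes made up 96.5% of the 200 and 95.4% of all, lncRNA genes 3% and 4.25%, and snRNA genes 0.5% and 0.192%. The median span was 23635 bases (quartiles 12005.5 and 43183.5), against 23112 (11079 and 53438) over all genes. Chromosome 1 held 12% of the 200 genes and 8.34% of all, chromosome 9 10.5% and 7.66%, and chromosome 8 3.5% and 6.81%. On the sex chromosomes, X1 and X2, lay 16 of the 200 genes (8%), against 13.7% of all. These shares were not tested, and the sex of the spiderlings is not given in the sources used here.

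**Figure D4:**
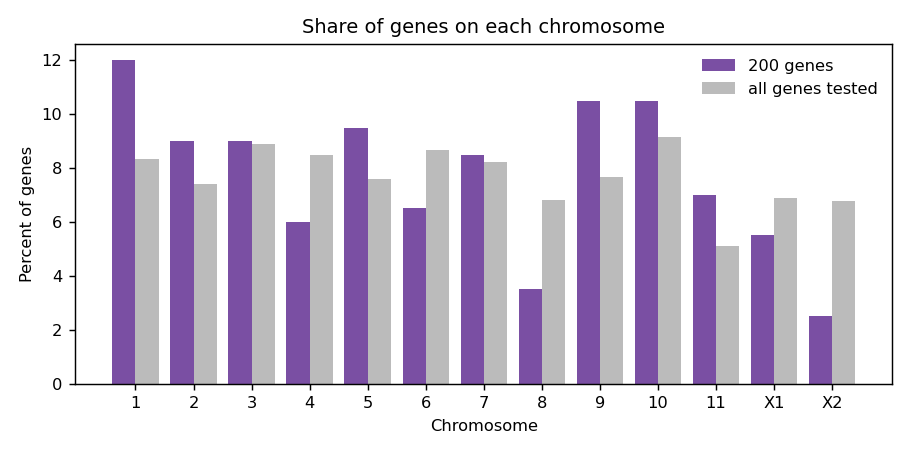
Percent of the 200 genes and of all annotated genes tested (vertical axis) on each chromosome (horizontal axis). Chromosome 1 holds 12% of the 200 genes and 8.34% of all, and X2 2.5% and 6.76%.

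Within 100 kb of each other lay 28 of the 200 genes, in 13 groups of at most 3. No such share over all genes tested is given here, so that the groups are only described. Of the groups of 3, the shorter was on chromosome 7, from 79420940 to 79531079, and held LOC129976542, LOC129975242 and LOC129976732 with no other annotated gene between them. LOC129975242 had 70.6 to 83.7 CPM in cold, 42.8, 45.4, 37.0 and 60.1 CPM in moderate and 66.8 to 76.4 CPM in warm pools, and so kept replicate 4 below all others. Its neighbours did not. LOC129976732 had 8.93, 7.59, 9.77 and 15.1 CPM in the moderate pools, with 12.3 to 16.7 CPM in cold and 14.4 to 16.7 CPM in warm, and LOC129976542 had 24.4, 12.6, 20.0 and 40.2 CPM, with 24.4 to 32.8 CPM in cold and 28.7 to 42.6 CPM in warm. Replicate 4 thus took positions of 0.564, 1.01 and 1.62 in 3 adjacent genes.

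The group on chromosome 5, from 127023994 to 127169961, held LOC129969224, LOC129969112 and LOC129969483 and 3 other genes. Replicate 4 had 12.3, 3.32 and 16.2 CPM in them, against 5.09 to 11.5, 1.02 to 2.48 and 11.9 to 14.2 CPM in the other moderate pools, and its positions were 0.475, 0.721 and 0.327. In all 3 it was the highest moderate pool and below the mean of the cold and warm pools. On chromosome 8, from 70254133 to 70295423, LOC129981284 and LOC129981109 were 264 bases apart. Their moderate pools had 13.5, 6.02, 13.9 and 20.6 CPM and 17.3, 9.72, 17.1 and 30.7 CPM, so that in both genes replicate 2 was lowest and replicate 4 highest.

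Finally, within the cold and warm regimes the 200 genes followed each other only a little more than other genes followed them. Over the 8 cold and warm pools, with regime means taken off on the log2 scale, the median correlation of a gene with the sum of the others was 0.29, and it was positive in 139 genes (69.5%). Other genes tested had a median of 0.17 with the same sum, and 61.7% were positive. These points share library and depth, so that the values only describe the pools.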

How the data were processed

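Ribosomal RNA was depleted from total RNA of each pool and directional libraries were sequenced. The authors mapped the reads with STAR 2.7.11a and counted those on genes with Subread 2.0.6, versions being those of the submitters' processing notes. Their deposited table holds unscaled gene counts of 12 pools, and 0 other sample columns were present. Counting options for strand and for reads of several origins are not given in the sources used here. Of 37459 genes 2 had no values. Group and replicate came from the sample titles.

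CPM used column sums. Contrasts were fitted in edgeR 4.0.16 (R 4.3.3) with TMM factors, filterByExpr at a minimum count of 10 and glmQLFTest, regime being the only factor. Each SE of a log2 fold-change was worked back from that test, as its absolute value over the square root of F. The functions were tested on simulated data. The members, lists and rules were chosen with earlier results of these data known. Genes were named as the 8 of largest ratio, the 8 of highest mean CPM, the 3 of highest and the 3 of lowest position (mean CPM of at least 10), up to 3 groups of neighbours within 100 kb, and those at the limit of 200, which replaced the ratio of 1.5 as the boundary. Of 24 genes that the paper names, 0 were members. Among the 24 is acetoacetyl-CoA synthetase (LOC129964270), which the paper describes as relatively high in warm and in cold against moderate. Which condition that gene failed is not given here. All 20591 LOC identifiers were found in the annotation. Lists by product name, tissue lists and motifs were planned but not used here.

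Alternatives were TMM or DESeq2 1.42.0 size factors, upper-quartile normalization, other filters and ratios, DESeq2's Wald test, limma 3.58.1 with voom and sample weights, a replicate block and each pool left out in turn. The counts of the genes above all 4 moderate pools under other settings were chosen after seeing the data.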

Additional observations from a re-analysis of the deposited data

Results flagged for a closer look

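In the genes named above, 90 sets of 4 pools of one regime were searched for a pool far from the other 3, with a gap to the nearest of them above Dixon's critical share of the whole range. Chance alone gives such a pool in about 1 of 20 sets of unselected values. Here 8 were found, but the values searched include those that chose and named the genes, so that their number is not set against chance. In 5 of them the pool was moderate replicate 4, which lay above the others in LOC129958002 (35.1 CPM, others 0.185 to 0.601), LOC129971067 (7.29 CPM, others 0.0751 to 0.850), LOC129976600 (216 CPM, others 93.6 to 112), LOC129972981 (34.4 CPM, others 6.84 to 8.43) and LOC129964080 (72.9 CPM, others 19.8 to 26.0). These genes were chosen to be low in the other 3 moderate pools, and LOC129972981 and LOC129964080 were named for the high place of this pool.

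LOC129971067 had 34.3 CPM in cold replicate 1, where the other cold pools had 1.04 to 1.56 CPM. LOC129983803 had 218 CPM in warm replicate 3, below 220 CPM in each of the others, a gap that is small in CPM and stands out only because the other 3 are nearly equal. In LOC129981284 warm replicate 4 had 18.0 CPM and the other warm pools 22.2 to 23.0 CPM.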

How the results depend on the processing

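The number of genes that met the conditions, 351, was 36 against all 4 moderate pools, 88 at a ratio of at least 2 and 674 with no minimum ratio, and between 297 (without moderate replicate 2) and 668 (without moderate replicate 3) with a pool left out; it was 607 without moderate replicate 1. It was 318 with TMM scaling and 320 with DESeq2 size factors. The 24 genes above all 4 moderate pools were 23 under either scaling and 12 without moderate replicate 2.

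Calls depended on the tool. In warm against moderate, 27 became 108 with DESeq2 (2209 over all genes), 184 with limma (5096) and 7 with upper-quartile normalization (95), and 0 to 190 with a pool left out (0 to 4419). In cold against moderate, 0 became 15 with DESeq2 (186 over all genes), 72 with limma (804) and 1 with no low-count filter (5), and 0 to 85 with a pool left out (1 without moderate replicate 2, 21 over all genes). In warm against cold, 0 became 1 with DESeq2 (1715 over all genes) and 42 with limma (3727), and 0 to 17 with a pool left out (5 without moderate replicate 2, 1865 over all genes). The highest counts with a pool left out were those without moderate replicate 4. The cause was not tested.

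Deviations of same-numbered pools from their regime means had correlations of -0.0742 to 0.121. Pools of unlike number were not compared, so that these values cannot tell whether the numbers pair the pools. With the replicate number as a block, 1 of the 200 genes (14 over all genes) was called in warm against moderate and 0 in the other contrasts.

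The median position of replicate 4, 0.973, stayed between 0.939 and 1.03 in all settings tried. Of 589 values of 31 named genes under other settings, 572 moved by less than their spread, 15 by more, and 2 changed sign, both in LOC129964080 (-0.081 and -0.048, without moderate replicates 1 and 3, where leaving out a pool gave values up to 0.746). Genes at a few counts per pool, such as LOC129958002 in 3 moderate pools, have ratios that depth limits. Precision otherwise rests on 4 pools per regime.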
